A study of Mus musculus with 4 samples.

Results

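The Zfp genes examined here are the protein-coding genes whose symbol is Zfp followed by a number and which lie on autosomes other than chromosomes 4 and 7. They numbered 233 symbols (237 gene models) among the 17991 protein-coding genes of the same autosomes in the GENCODE vM1 annotation of NCBIM37, the assembly equivalent to mm9. A gene was called clustered when another of these genes lay within 100 kb and single otherwise, which gave 112 clustered and 121 single genes. Zfp738, Zfp263, Zfp605 and Zfp932 were just inside that limit, with gaps of 92621, 96477, 99680 and 99680 bp, and Zfp72, Zfp825, Zfp653 and Zfp157 were just outside it, with gaps of 103950, 103950, 125721 and 143921 bp.

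The study examined mouse embryonic stem (ES) cells, cultured pluripotent cells, of strain 129S1/SvImJ. WT cells carried unmodified H3.3 genes, and G34R cells carried a glycine to arginine substitution in 1 targeted allele of H3f3a, expressed from the endogenous promoter, with the other H3f3a allele and both copies of H3f3b unmutated. No treatment was given. Chromatin immunoprecipitation and sequencing (ChIP-seq) for H3K9me3 and H3K36me3 gave 4 libraries, 1 for each combination of cells and mark, so there was no replicate, and the depth of each library is unknown. The authors deposited 1 list of enriched regions per mark, holding 32502 regions for H3K9me3 and 31593 for H3K36me3. A region was listed when it passed the threshold in WT or in G34R cells, so the values below describe both cells together and do not compare them. The G34R cells came from gene targeting and Cre excision, and how many targeted clones the libraries represent is not given in the sources used here.

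C2H2 zinc finger proteins bind DNA through repeated fingers, each held together by a zinc ion between cysteine and histidine pairs and joined to the next by a short linker. Many also carry a KRAB domain, which recruits TRIM28 and, through it, the H3K9 methyltransferase SETDB1 to the bound site. The genes are often arranged in tandem clusters that arose by duplication, and their fingers usually lie together in a long last coding exon. H3K9me3 marks silent chromatin, and in many cell types it also covers the finger exons of zinc finger genes. H3K36me3 is placed along transcribed gene bodies by SETD2, which travels with RNA polymerase, and the KDM4 enzymes remove methyl groups from both lysines.

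The members fitted this description only in part. The linker between fingers is usually translated as threonine, glycine, glutamate, lysine and proline, and the bases coding for most forms of it, ACNGGNGANAANCC on the coding strand, were found in the last coding exon of 153 of the 233 genes, against 1.60% of all protein-coding genes on these autosomes. They occurred in 103 of 112 clustered genes and in 50 of 121 single genes. The median number of finger matches in the translated protein was 12 in clustered and 7 in single genes, and 13 of the 233 members had 0. The last coding exon was 1376 bp at the median in clustered genes, 867 bp in single genes and 176 bp in the other protein-coding genes. Both KRAB patterns searched were present in 54 clustered and 17 single genes. The single genes thus included proteins with few fingers and no KRAB match, and the clustered genes were closer to the tandem type.

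The following 300 base stretches of last coding exons show the fingers over which the lists were compared, each chosen as the first window with the most linker matches in its exon. They were read from NCBIM37, a reference of another mouse strain than the cells, 5′ to 3′ on the coding strand, and capitals mark matches to the linker bases. Zfp13 (chr17:23713517-23713816, minus strand), Zfp930 (chr8:71751976-71752275, plus strand) and Zfp11 (chr5:130163600-130163899, minus strand) are covered throughout by both marks. Zfp42 (chr8:44381140-44381439, minus strand) is covered throughout by H3K36me3 alone, and Zfp457 (chr13:67394619-67394918, minus strand), a member of the largest cluster, by neither.
Zfp13: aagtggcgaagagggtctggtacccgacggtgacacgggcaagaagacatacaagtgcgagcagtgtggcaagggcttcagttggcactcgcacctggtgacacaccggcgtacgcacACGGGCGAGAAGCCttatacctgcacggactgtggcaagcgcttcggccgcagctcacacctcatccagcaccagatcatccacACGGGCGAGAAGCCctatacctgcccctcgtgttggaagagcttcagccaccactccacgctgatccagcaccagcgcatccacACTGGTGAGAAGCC
Zfp930: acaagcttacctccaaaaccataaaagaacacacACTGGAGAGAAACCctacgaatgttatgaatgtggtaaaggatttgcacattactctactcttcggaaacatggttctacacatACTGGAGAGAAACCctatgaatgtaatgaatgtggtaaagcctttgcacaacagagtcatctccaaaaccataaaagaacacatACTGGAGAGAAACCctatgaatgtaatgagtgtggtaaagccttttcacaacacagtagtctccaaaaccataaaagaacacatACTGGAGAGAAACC
Zfp11: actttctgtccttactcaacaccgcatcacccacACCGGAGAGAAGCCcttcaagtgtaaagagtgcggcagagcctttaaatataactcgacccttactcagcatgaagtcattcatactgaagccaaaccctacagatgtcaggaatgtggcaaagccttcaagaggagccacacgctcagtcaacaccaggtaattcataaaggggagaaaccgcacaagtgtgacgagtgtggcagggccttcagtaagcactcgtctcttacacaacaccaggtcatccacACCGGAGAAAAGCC
Zfp42: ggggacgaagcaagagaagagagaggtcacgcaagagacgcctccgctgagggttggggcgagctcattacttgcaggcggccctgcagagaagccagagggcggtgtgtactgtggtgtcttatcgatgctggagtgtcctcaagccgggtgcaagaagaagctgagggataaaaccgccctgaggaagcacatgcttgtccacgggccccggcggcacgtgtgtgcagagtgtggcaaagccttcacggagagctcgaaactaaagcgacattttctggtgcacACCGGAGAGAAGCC
Zfp457: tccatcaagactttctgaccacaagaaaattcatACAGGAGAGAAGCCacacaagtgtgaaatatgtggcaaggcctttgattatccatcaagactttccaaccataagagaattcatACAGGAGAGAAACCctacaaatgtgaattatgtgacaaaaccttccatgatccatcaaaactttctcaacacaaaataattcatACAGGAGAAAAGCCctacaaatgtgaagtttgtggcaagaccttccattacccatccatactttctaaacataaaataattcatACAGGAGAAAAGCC

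Zfp930 and Zfp457 had 4 linker matches in their windows, Zfp13 had 3, Zfp11 had 2 and Zfp42 had 1. The windows differed in base composition, with G+C contents of 60.7% in Zfp13, 59.0% in Zfp42, 49.7% in Zfp11, 39% in Zfp930 and 37% in Zfp457. The genes shown were picked for their marking, Zfp930 after its values were seen, so these compositions describe the windows only.

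Across the whole gene, H3K36me3 was the more frequent mark. H3K36me3 regions were found in 130 of 233 genes, 55.8% (95% Wilson interval 49.4 to 62.0), whereas 35.6% of all protein-coding genes on these autosomes had one. H3K9me3 regions were found in 111 genes, 47.6% (41.3 to 54.0), close to the 42.5% of all protein-coding genes. Bases that lay in both lists were found in 44 genes, 18.9% (14.4 to 24.4), against 7.45% of all protein-coding genes. With regions of at least 1 kb only, H3K9me3 was in 30.5% of members and 26.2% of all protein-coding genes, and both marks shared bases in 12.4% and 3.74%. H3K9me3 alone was present in 51 genes, H3K36me3 alone in 70 and both without a shared base in 16, counts that describe the members only. A region of each list, with or without a shared base, was found in 60 members, 25.8%, against 12.9% of all protein-coding genes. Neither mark was present in 52 members, 22.3%, where 34.8% of all protein-coding genes were in neither list. Wilson intervals here and below cover counting error over genes only. Genes that share a cluster share sequence and neighbourhood, and they are not replicates.

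Gene length moved with the H3K9me3 share. The mark was found in 35.5% of members under 10 kb, in 43.5% of those from 10 to 20 kb, in 48.2% of those from 20 to 40 kb and in 83.3% of the 30 members of 40 kb or more, and the other protein-coding genes rose from 22.9% to 72.3% over the same classes. H3K36me3 had no such order among the members, with 48.4%, 61.2%, 53.6% and, in the longest class, 18 of 30 genes. The other protein-coding genes had H3K36me3 in 21.7%, 46.5%, 48.1% and 39.4%. These values lay below the interval of the members except from 20 to 40 kb (40.7 to 66.0), where the value lay inside it. The H3K9me3 share of the members was above that of other genes in each class, with intervals that lay apart from theirs only below 10 kb (24.7 to 47.9 for the members). As a share of sequence, H3K9me3 covered 5.02% of the 6692 kb of members and H3K36me3 9.73%, compared with 3.51% and 5.80% of all protein-coding genes.

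The marks were then placed along the gene, in the order start (the first 1 kb), intron, coding exons and 3′ end (the exon bases after the stop codon and the last 1 kb). A gene could count in several parts. At the start, H3K9me3 was found in 36 genes, 15.5% (11.4 to 20.6), against 19.6% of all protein-coding genes. With regions of at least 1 kb only, these shares were 7.30% and 11.2%. H3K36me3 was found there in 10 genes, 4.29% (2.35 to 7.72), against 1.90%. Of those 10 genes, 9 also had H3K36me3 in the last coding exon or at the 3′ end.

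Introns held most of the covered sequence, in members as in other genes. H3K9me3 was found in an intron of 97 genes, 41.6%, against 38.9% of all protein-coding genes, and H3K36me3 in an intron of 117 genes, 50.2%, against 33.7%. With each base counted in 1 part, introns accounted for 61.2% of the H3K9me3 bases and 62.9% of the H3K36me3 bases in members, compared with 79.2% and 75.2% in all protein-coding genes. Of the intron sequence itself, 3.72% was covered by H3K9me3 and 7.41% by H3K36me3 in members, compared with 3.06% and 4.79%.

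The last coding exon was marked by either mark in a larger share of members than of all protein-coding genes. H3K9me3 was found in the last coding exon of 59 genes, 25.3% (20.2 to 31.3), against 9.49% of all protein-coding genes. H3K36me3 was found there in 107 genes, 45.9% (39.6 to 52.3), against 23.0%. Both marks shared bases there in 26 genes, 11.2% (7.73 to 15.8), against 1.32%. By share of genes the 3′ end followed the exon, with H3K9me3 in 52 genes, 22.3%, against 10.6%, and H3K36me3 in 79 genes, 33.9%, against 24.5%. The last 1 kb can include part of the last coding exon, so these shares of genes are not independent of those of the exon. By bases, each counted in 1 part, the 3′ end stood above all protein-coding genes for H3K9me3 only. H3K9me3 covered 8.89% of 3′ end bases in members and 4.66% in all protein-coding genes, and H3K36me3 13.6% and 16.0%. In other protein-coding genes with a last coding exon of at least 500 bp, H3K9me3 covered 8.80% and H3K36me3 8.12% of these bases. Against those genes, the higher H3K9me3 coverage of 3′ end bases was thus not seen. By genes, 652 of 3825 of them had H3K9me3 there, a share below the interval of the members (17.4 to 28.1). Per base, 21.8% of last coding exon sequence was in the H3K9me3 list, 34.3% in the H3K36me3 list and 8.45% in both, compared with 13.6%, 16.8% and 1.62% in all protein-coding genes. With each base counted in 1 part, the first 1 kb taken as start, the other coding exons were covered by H3K36me3 over 42.3% of their bases, compared with 25.7% in all protein-coding genes. H3K9me3 stood the other way there. It was found in a coding exon other than the last in 33 genes, 14.2% (10.3 to 19.2), against 22.1% of all protein-coding genes, and covered 4.62% of these bases, compared with 5.83%. Other protein-coding genes with a last coding exon of at least 500 bp had 13.4%, inside the interval of the members, and 9.16% of bases. The lower share of genes was thus not seen against genes with long last coding exons.

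**Figure D1:**
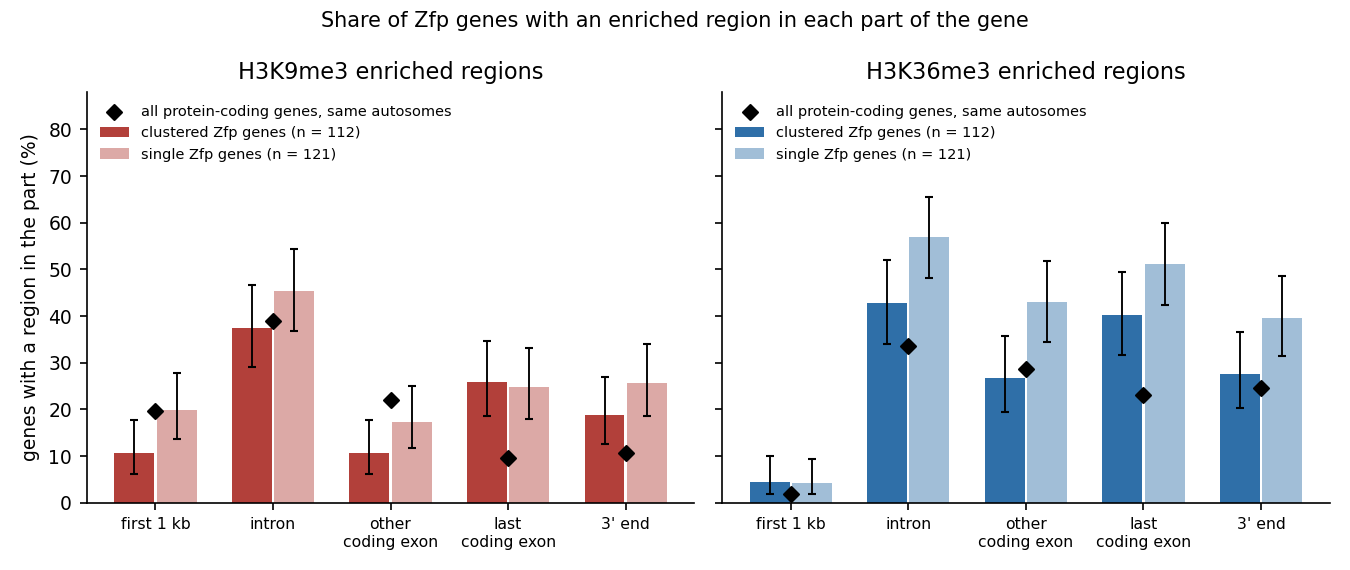
Bars give the share of clustered (n = 112, dark) and single (n = 121, light) Zfp genes with a region in each part of the gene, in percent, with 95% Wilson intervals, for H3K9me3 (left) and H3K36me3 (right). Diamonds give all protein-coding genes of the same autosomes, and the last coding exon bars stand above the diamonds in both panels, at 25.9% and 24.8% for H3K9me3 and 40.2% and 51.2% for H3K36me3.

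Where present, the marks tended to fill the exon. Among the 59 genes with H3K9me3 in the last coding exon, the median covered share of the exon was 76.2%, and 18 exons were covered whole. Among the 107 genes with H3K36me3 there, the median was 100% and 58 exons were covered whole, some of them short. Among the 26 genes with both, the shared bases made up 68.9% of the exon at the median. The regions are built from 200 bp bins and the smallest was 600 bp, so a short exon is either missed or largely covered.

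A long exon offers more bins than a short one, so the exons were compared by length. For H3K9me3, the members and the other protein-coding genes rose together. The share was 4.55% of members with a last coding exon under 500 bp, 15.8% from 500 to under 1000 bp, 30.9% from 1000 to under 1500 bp and 37.1% at 1500 bp or more, and in the other protein-coding genes it was 6.38%, 13.5%, 27.9% and 41.0%. In every class the value for the other genes lay inside the interval of the members, so at a given exon length a difference in H3K9me3 from other genes was not detectable with these numbers of genes.

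For H3K36me3 the outcome differed. The members had shares of 56.8%, 44.7% and 45.7% in the first 3 classes and 28 of 70 in the longest, whereas the other protein-coding genes had 3485 of 13933, 11.2%, 17.1% and 25.6%, below the interval of the members in each class. Many other genes with long last coding exons have a single coding exon. Among other genes with more than 1 coding exon the shares were 26.4%, 22.6%, 25.1% and 36.5%, and in the longest class this value lay inside the interval of the members (29.3 to 51.7).

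Bases in both lists were found in the last coding exon of 0 of 44 members under 500 bp, of 5.26% from 500 to under 1000 bp, of 14 of 81 (17.3%, 10.6 to 26.9) from 1000 to under 1500 bp and of 10 of 70 (14.3%, 7.95 to 24.3) at 1500 bp or more. The other protein-coding genes with more than 1 coding exon had 1.11%, 1.08%, 3.62% and 7.31%. In the class from 1000 to under 1500 bp the intervals lay apart (2.13 to 6.10 for those genes), and in the classes from 500 to under 1000 bp and of 1500 bp or more they overlapped. The Wilson interval of the 0 of 44 reached 8.03%.

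**Figure D2:**
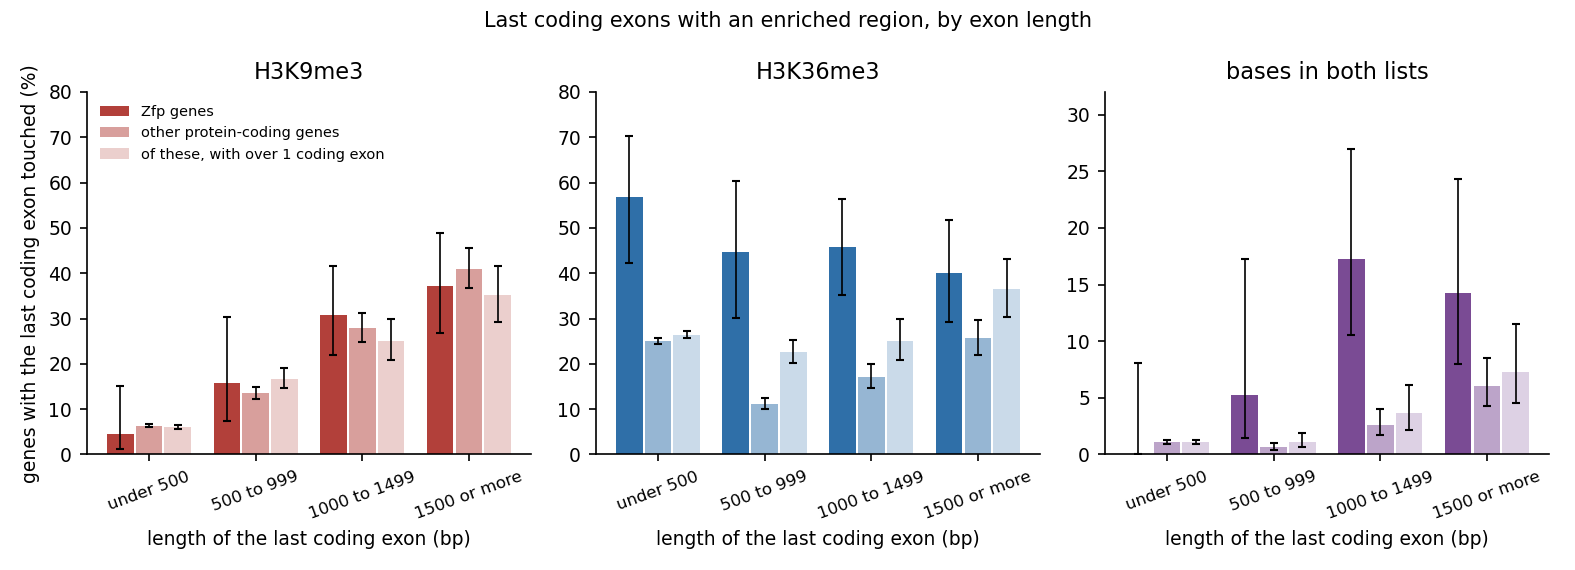
Bars give the share of genes, in percent, with H3K9me3, H3K36me3 or bases of both in the last coding exon, by the length of that exon in bp, for Zfp genes (dark), other protein-coding genes (paler) and those of them with more than 1 coding exon (palest), with 95% Wilson intervals as error bars. H3K9me3 bars rise with exon length in all groups, and bases of both reach 17.3% of Zfp genes from 1000 to under 1500 bp, on an axis of its own scale.

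Among the members with a finger match, H3K9me3 in the last coding exon was least frequent in genes with few fingers, and H3K36me3 was most frequent there. H3K9me3 was present in 2 of 36 genes with 1 to 4 finger matches, in 13 of 67 with 5 to 9, in 28 of 75 with 10 to 14 and in 14 of 42 with 15 or more. H3K36me3 was found in 25 of 36, 33 of 67, 30 of 75 and 15 of 42 genes of the same classes. The 13 members with 0 finger matches were outside that order, with H3K9me3 in 2 and H3K36me3 in 4. The part of exon length in these counts was not tested. G+C of the exon moved little with H3K9me3 and more with H3K36me3, with medians of 47.2% in the 59 exons with H3K9me3 and 45.4% in the 174 without, and of 48.0% in the 107 exons with H3K36me3 and 42.8% in the 126 without. In classes of exon G+C the H3K9me3 share of the members had no order, at 23.6% below 45%, 28.6% from 45 to 50%, 14.3% from 50 to 55%, 24.1% from 55 to 60% and 39.3% at 60% or more, whereas in the other protein-coding genes it rose from 2.92% to 24.1%.

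Clustered and single genes were compared for each mark and part. H3K9me3 was found in 50 clustered genes, 44.6%, and 61 single genes, 50.4%, a difference of -5.77 percentage points (95% Newcombe interval -18.2 to 6.97). The difference was -12.3 points (-23.5 to -0.42) with regions of at least 1 kb, and had the other sign without chromosome 13, at 2.10 points, and in genes under 40 kb, at 1.32 points. In the last coding exon it was found in 29 clustered genes, 25.9%, and 30 single genes, 24.8%, a difference of 1.10 points (-9.97 to 12.3). These exons are longer in clustered genes, and per base H3K9me3 covered 17.9% of them in clustered and 26.8% in single genes. Among exons of 1500 bp or more it was found in 10 of 36 clustered and 16 of 34 single genes, the opposite order to that of all exons. Clustered genes also had the lower share in short exons. The counts were 0 of 3 and 2 of 41 under 500 bp, and 2 of 16 and 4 of 22 from 500 to under 1000 bp. At the start it was found in 12 clustered and 24 single genes, 10.7% and 19.8%, a difference of -9.12 points (-18.3 to 0.25). With all regions and genes, the 3 intervals include 0.

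H3K36me3 was found in 57 clustered genes, 50.9%, and 73 single genes, 60.3%, a difference of -9.44 points (-21.8 to 3.28), and at the start in 5 genes of each. The interval excluded 0 in coding exons other than the last, with 30 clustered genes, 26.8%, and 52 single genes, 43.0% (-16.2 points, -27.7 to -3.92), where all protein-coding genes had 28.6%, and in introns, with 48 and 69 genes (-14.2 points, -26.4 to -1.33). Clustered genes have less coding sequence outside the last exon, 32.4 kb in all compared with 122 kb in single genes. Per base of that sequence the H3K36me3 coverage was 27.6% in clustered and 46.2% in single genes, so the order held for bases. In introns it did not, with 7.77% of bases covered in clustered and 7.27% in single genes, and over whole genes the coverage was 9.71% and 9.74%. Without chromosomes 13 and 17 these differences were -3.86 points (-18.7 to 11.6) in other coding exons and -3.21 points (-18.6 to 12.1) in introns, and the interval also included 0 for both without chromosome 17 alone and for introns without chromosome 13 alone (-9.81, -9.77 and -10.6 points). Neither mark was present in 31 clustered and 21 single genes. Of the 20 comparisons of clustered with single genes that were made, only those of H3K36me3 in other coding exons and in introns had an interval on 1 side of 0, with no adjustment for their number.

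The place of H3K9me3 within the gene also varied. Of the 50 clustered genes with H3K9me3, 27 had it in the last coding exon or 3′ end and not at the start, 9 at the start alone, 3 at both and 11 at neither end. Of the 61 single genes with H3K9me3, 17 had it in the last coding exon or 3′ end and not at the start, 9 at the start alone, 15 at both and 20 at neither end. Single genes marked at both ends included short genes covered from end to end, such as Zfp503 and Zfp703. H3K36me3 was placed more evenly, with 42 of 57 clustered and 58 of 73 single genes marked in the last coding exon or 3′ end without the start.

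Coverage was also counted by distance from the start and from the stop codon. Counting the genes that reach each position, H3K9me3 coverage was highest 400 bp after the start of single genes, at 18.2%, and 200 bp after the start of clustered genes, at 8.93%. Before the stop codon it rose to 21.7% of single and 19.6% of clustered genes. H3K36me3 covered 0.826% of single and 2.68% of clustered genes at the start and reached 42.5% and 33.0%, both 600 bp before the stop codon. At the stop codon itself it had fallen to 35.5% and 23.2%.

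**Figure D3:**
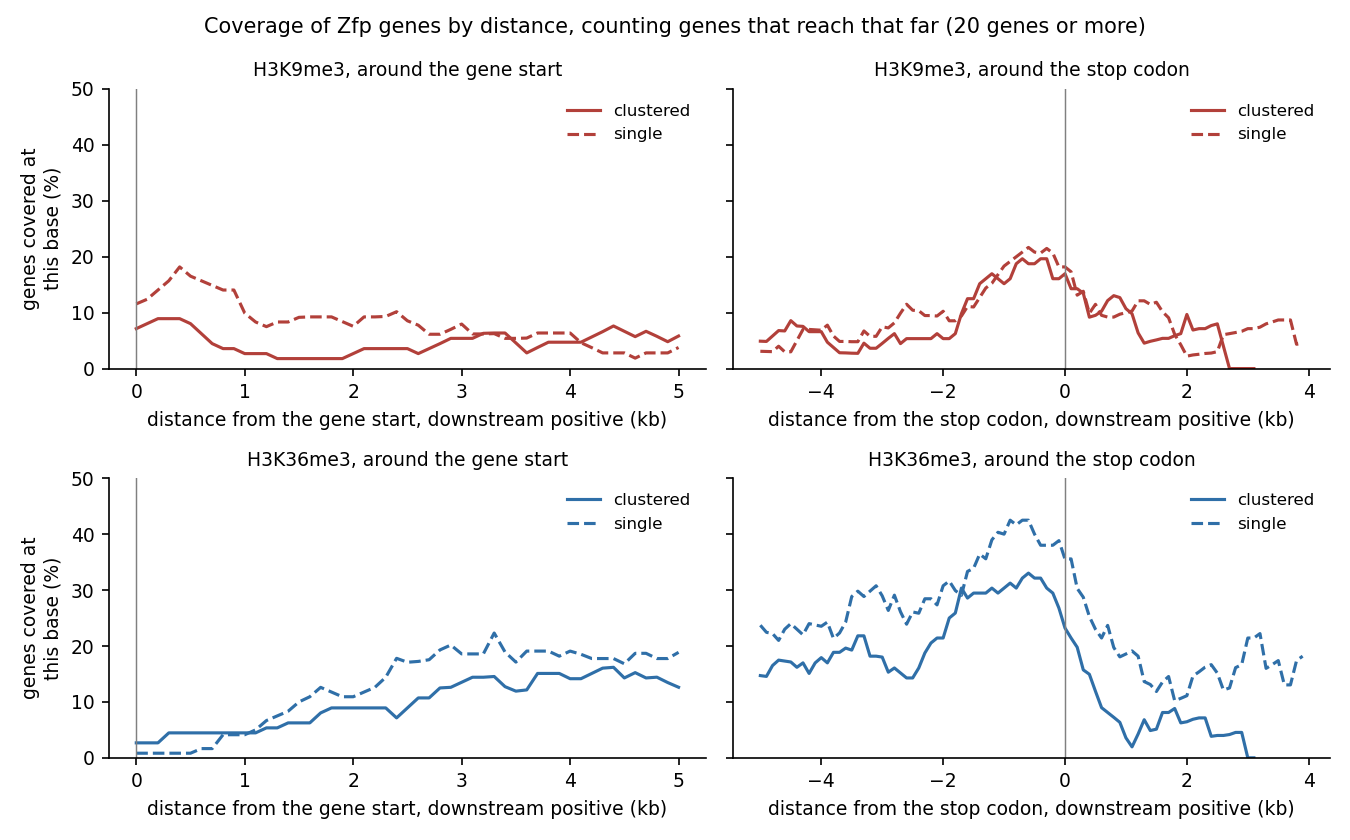
Each line gives the percentage of clustered (solid) or single (dashed) Zfp genes covered by H3K9me3 (top) or H3K36me3 (bottom) at a distance in kb from the gene start or the stop codon, over positions inside the gene reached by 20 genes or more. Both marks are highest within 1 kb before the stop codon, and H3K9me3 has a second, lower maximum just after the start of single genes.

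H3K9me3 was also counted by the number of genes in a cluster. It was found in 61 of 121 single genes, 50.4% (41.6 to 59.2), and in 42.5% of all protein-coding genes. In the 16 clusters of 2 genes, H3K9me3 was found in 20 of 32 genes, 62.5% (45.3 to 77.1), and in the 11 clusters of 3 to 5 genes in 20 of 39. In the 5 clusters of 6 or more it was found in 10 of 41 genes, 24.4% (13.8 to 39.3). In the last coding exon the counts were 30 of 121 single genes, and 14 of 32, 11 of 39 and 4 of 41 clustered genes. The last of these, 9.76% (3.86 to 22.5), was near the 9.49% of all protein-coding genes, but this share rises with exon length. Other protein-coding genes with a last coding exon of at least 500 bp had 19.9%, a higher value that lay inside that interval. H3K36me3 varied less, with 16 of 32, 21 of 39 and 20 of 41 genes. The 5 largest clusters lay on chromosomes 13, 17 and 6. On chromosome 17, H3K9me3 was found in 6 of 9 genes in clusters of 2 to 5 and in 4 of 20 in clusters of 6 or more, on chromosome 13 in 1 of 7 and 2 of 14, and on chromosome 6 in 1 of 4 and 4 of 7. Among clustered genes, the order over all clusters was thus seen within chromosome 17 and not within chromosomes 13 and 6. Single genes had H3K9me3 in 2 of 10 on chromosome 17, 6 of 10 on chromosome 13 and 4 of 5 on chromosome 6. On chromosome 17 their share was thus no higher than that of the clusters of 6 or more.

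Chromosomes 13 and 17 held 70 members, of which 50 were clustered, and 26 of the 52 genes in neither list, 38.7% and 35.9% of their members, close to the 34.8% of all protein-coding genes. H3K9me3 was found in 9 of 31 members of chromosome 13 and in 12 of 39 of chromosome 17, 29.0% and 30.8%, where all protein-coding genes had 40.3% and 37.6%. It was found in 19 of 26 members of chromosome 8 and in 12 of 16 of chromosome 5, where all protein-coding genes had 57.8% and 46.5%. Chromosome 8 was therefore high for other genes as well. Without chromosomes 13 and 17, H3K9me3 was found in 55.2% of members and the difference between clustered and single genes changed sign, to 7.20 points (-8.42 to 22.1), and in the last coding exon it became 14.0 points (-0.50 to 28.4). The H3K36me3 difference shrank to -2.33 points (-17.6 to 12.7). The sign of the H3K9me3 difference thus changed with these chromosomes, and also with chromosome 13 alone and with gene length.

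**Figure D4:**
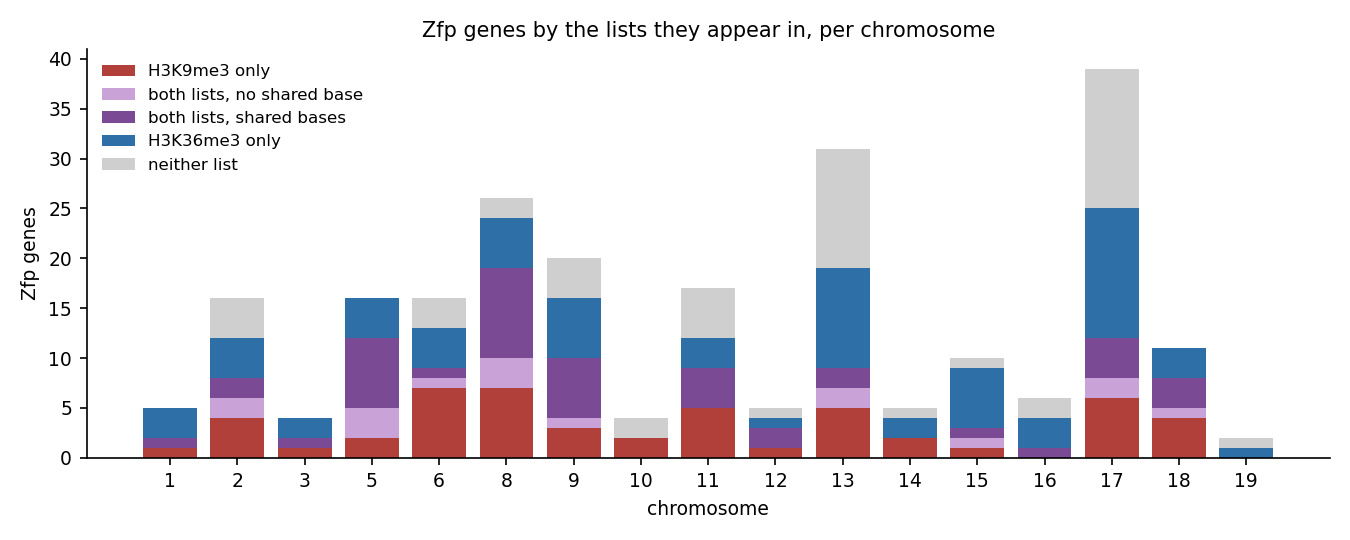
Bars give the number of Zfp genes per chromosome, divided into H3K9me3 only, both lists without and with shared bases, H3K36me3 only and neither list. Chromosomes 13 and 17 hold the most genes and the most genes in neither list, 12 and 14, and chromosomes 5, 8 and 9 hold 7, 9 and 6 genes with shared bases.

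The 14 gene cluster of chromosome 13 (67139530 to 67654065) was the largest. H3K9me3 was found in 2 of its genes, Zfp712 with 600 bp of intron and Zfp455 with 834 bp at the 3′ end, and in no last coding exon. Zfp708, Zfp759, Zfp458, Zfp457, Zfp595 and Zfp429 were in neither list, with 10 to 20 finger matches. H3K36me3 lay mainly at 1 side, with 1800 to 3200 bp in the neighbours Zfp459, Zfp58, Zfp87 and Zfp748, beside 600 bp in Zfp953 and 19 bp in Zfp456, which overlap each other. Bins whose central 50 bases occurred more than 5 times in the genome, which the aligner setting would drop, made up 2.59% of the cluster. Only exact copies were counted, so the share of dropped sequence may be higher. The next cluster on the chromosome, Zfp738, Zfp493 and Zfp273, had neither mark in any gene.

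The 8 gene cluster of chromosome 17 (32908181 to 33243148) showed the marks in other proportions. H3K36me3 was found in the last coding exon of 6 of its genes, from 600 bp in Zfp952 to 1657 bp in Zfp871. H3K9me3 was found only in Zfp763, with 2800 bp, of which 1053 bp lay in the last coding exon, and 800 bp there were shared with H3K36me3. Zfp811 and Zfp563 were in neither list. There were 2 other clusters of 6 genes on chromosome 17 between 21520712 and 22303157, and in each of them 3 genes had neither mark and 0 had bases of both.

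In the 7 gene cluster of chromosome 6 (47769265 to 48036592) the marks were mixed. Zfp777 carried both over all 1190 bp of its last coding exon. Zfp282 had H3K9me3 over all 821 bp of its own, without H3K36me3, and Zfp212 had H3K36me3 over all 857 bp without H3K9me3. Zfp398 and Zfp956 had 600 bp of H3K9me3 each at the start, and Zfp786 had neither mark. Over all clusters there were 80 pairs of neighbouring genes, of which 19 had H3K9me3 in both genes, 31 in 1 gene and 30 in neither. For H3K36me3 the counts were 23, 35 and 22. Regions that touched 2 or more members numbered 1 for H3K9me3 and 3 for H3K36me3.

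**Figure D5:**
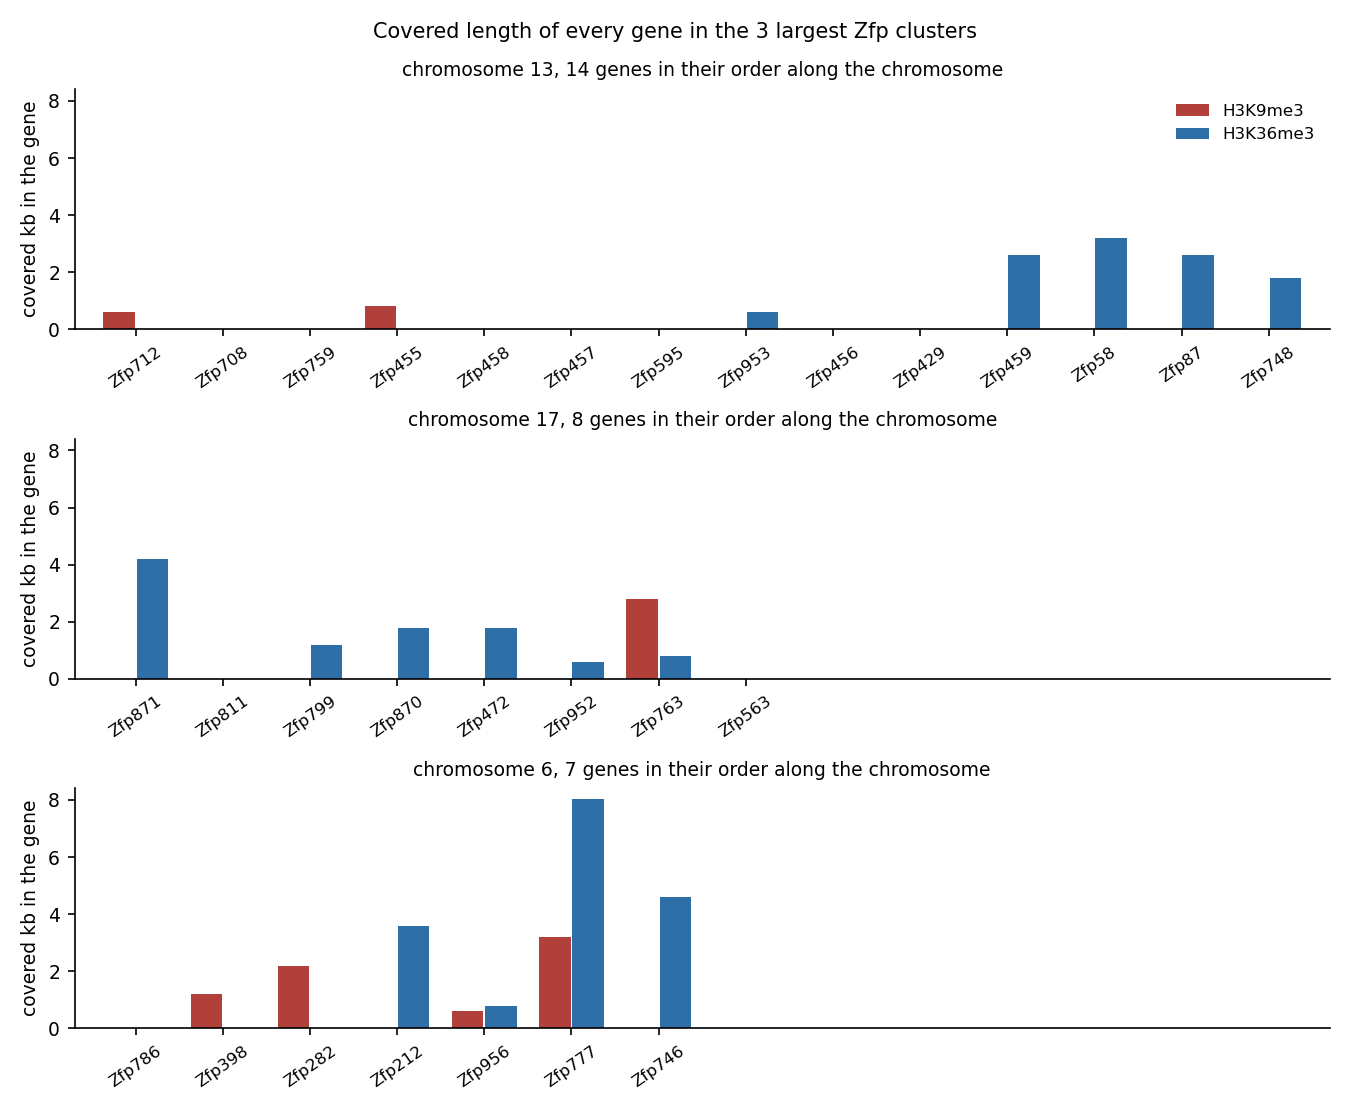
Bars give the length covered by H3K9me3 (red) and H3K36me3 (blue) in each gene, in kb, for the 3 clusters with the most genes, in their order along the chromosome. H3K36me3 reaches 1.8 to 3.2 kb in the last 4 genes of the chromosome 13 cluster, the 19 bp of Zfp456 are too short to see, and Zfp777 in the chromosome 6 cluster has the tallest bars of both marks.

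The genes with the most H3K9me3 were 42371 to 461699 bp long. Zfp808 (chromosome 13, 62231276 to 62274779), with 22 finger matches, had 20379 bp of H3K9me3, of which 18873 bp lay in introns, and all of its 8000 bp of H3K36me3 were shared with H3K9me3. In Zfp808, 57.3% of bins had more than 1 copy in the genome. Zfp407 (461699 bp long, chromosome 18) had 15200 bp in 13 regions, and Zfp423 (297786 bp, chromosome 8), a regulator of fat and brain development, 12694 bp in 16 regions. Zfp652 (chromosome 11) had 13629 bp, Zfp277 (chromosome 12) 11000 bp, all of it intronic, and Zfp961 (chromosome 8) 10800 bp. In the longest of these genes the mark was sparse, at 3.29% of Zfp407 and 4.26% of Zfp423, and in Zfp808 it was dense, at 46.8%.

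By covered bases, the genes with the most H3K36me3 were all single genes. Single genes made up 25 of the 30 members of 40 kb or more. As a share of whole genes, H3K36me3 covered 9.74% of single and 9.71% of clustered sequence. Zfp532 (chromosome 18) had 30000 bp, Zfp106 (chromosome 2), an RNA-binding protein needed by motor neurons, 28800 bp, and Zfp236 (chromosome 18) 24400 bp. Zfp516 had 23000 bp, Zfp64 18200 bp and Zfp335, a subunit of H3K4 methyltransferase complexes, 18019 bp. H3K36me3 covered 90.7% of Zfp335 and 50.5% of Zfp106. Zfp106 and Zfp236 had no H3K9me3, whereas all 1800 bp of H3K9me3 in Zfp335 were shared. Zfp335 overlaps Pcif1, so the widest of its H3K36me3 regions, 18800 bp, belongs in part to that gene.

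In 4 members H3K9me3 covered the longest stretches of last coding exon. Zfp316 (chromosome 5, 144011376 to 144031701) had H3K9me3 over all 2357 bp of its last coding exon and 901 bp of its start, with no H3K36me3. Zfp11 (chromosome 5, 130160468 to 130175974) had H3K9me3 over all 1934 bp, of which 1860 bp were shared with H3K36me3. Zfp612 and Zfp319 on chromosome 8 had it over all 1760 and 1746 bp, with 1400 and 1473 bp shared. These 3 genes with shared bases were single, and in Zfp11, whose window is shown above, 49.9% of the whole gene was in the H3K9me3 list.

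A few genes had the same region in both lists. The region of Zfp13, 23712801 to 23714800 on chromosome 17, covered its last coding exon (1055 bp) and the last 1 kb of the gene. That of Zfp930, 71750801 to 71753000 on chromosome 8, covered 2079 of the 2638 bp of the gene, with its exon of 1138 bp in full. That of Zfp445, 122764601 to 122771400 on chromosome 9, ran over the start and first part of the gene (6646 bp) and not over the finger exon, where H3K36me3 alone covered 906 of 2075 bp. Zfp445 encodes a KRAB protein that protects imprints. Identical 600 bp intronic regions were also found in Zfp932 and Zfp808, and these were all 5 identical pairs. Zfp930 was chosen after its values were seen, as were Zfp503, Zfp703, Zfp872, Zfp599, Zfp810, Zfp960 and Zfp97.

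Some members with known roles in ES cells had H3K36me3 without H3K9me3. Zfp42, which encodes the pluripotency marker REX1, had 7400 bp of H3K36me3, including all 867 bp of its last coding exon. Zfp57, which encodes a KRAB protein that maintains methylation at imprinted regions, had 6180 bp, in a region that also reaches Mog. Zfp281, a pluripotency regulator, had 2600 bp, and Zfp207 16200 bp. Zfp217, Zfp148 and Zfp384 likewise had H3K36me3, over 11400, 1200 and 9000 bp, and no H3K9me3.

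Other members listed for a known role were marked in other ways. Zfp809, which encodes a KRAB protein that silences retroviruses, had 2200 bp of H3K9me3 and 3800 bp of H3K36me3, with 600 bp shared, and neither mark in its last coding exon of 164 bp. Its neighbours Zfp872, Zfp599 and Zfp810 had H3K9me3 in the last coding exon, which made H3K9me3 present in all 4 genes of this chromosome 9 cluster. Zfp932 had 9430 bp of H3K9me3 and 4600 bp of H3K36me3, with 4400 bp shared, and 47.9% of its bins had more than 1 copy. Zfp369 had 2000 bp of each with 0 shared. Zfp358, where the study examined KDM4B, had 463 bp of H3K9me3 at the start and no H3K36me3. Zfp708 was in neither list, and its annotated last coding exon, at 39 bp, is too short to hold a finger.

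Of the 13 members with 0 finger matches, 4 had H3K9me3, and in 2 short ones it filled the gene. Zfp703 (chromosome 8) and Zfp503 (chromosome 14), 4126 and 5640 bp long, had 0 finger matches, and H3K9me3 covered 100% and 99.7% of them with no H3K36me3. Each was covered by 1 region.

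Copied sequence was examined because reads with more than 5 alignments were dropped. Of the 200 bp bins of clustered genes, 12.9% had more than 1 exact copy of their central 50 bases and 5.71% more than 5, compared with 4.45% and 2.65% in single genes. H3K9me3 was found in 4.91% of member bins with 1 copy, 12.8% of those with 2 to 5 copies and 1.91% of those with more than 5, and H3K36me3 in 10.1%, 9.63% and 1.08%. Without Zfp808 and Zfp932, the H3K9me3 shares were 4.70%, 6.96% and 1.78%, so much of the excess in bins with 2 to 5 copies lay in those 2 genes, and a read there may come from another copy. Leaving out these genes was chosen after seeing the data. Zfp960 and Zfp97 on chromosome 17, in which 83.6% and 88.3% of bins had more than 1 copy, had 1023 and 1045 bp of their last coding exons in both lists. A read in such a bin may come from another copy, in the other gene or elsewhere in the genome. Among members with at least 80% single-copy bins, H3K9me3 was found in 46.6% and H3K36me3 in 59.6%.

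Other zinc finger families were set beside the members. The 100 Zfp genes on chromosomes 4 and 7 had H3K9me3 in the last coding exon in 26 genes, H3K36me3 in 49 and both in 14, within the intervals of the members. Of 36 Zbtb genes, whose proteins pair fingers with a BTB domain, 3 had H3K9me3 there, 15 had H3K36me3 and 0 had both. Of 25 Zscan and Zkscan genes, whose proteins carry a SCAN domain, the counts were 3, 8 and 1. All protein-coding genes stood at 9.49%, 23.0% and 1.32%, and the H3K9me3 counts of both families, 8.33% and 12% of their genes, were near that share. A list of 20 genes for enzymes and readers of these marks, H3.3 (H3f3a and H3f3b) and its chaperones, among them Trim28, Setdb1, Setd2, Kdm4a and Daxx, was read in the same way. H3K36me3 was found in 19 of them, all but Atrx, and H3K9me3 in 2, Atf7ip and Kdm4b. All protein-coding genes on autosomes other than 4 and 7 had 35.6% and 42.5%. The list is not limited to those autosomes, since Kdm4a and Kdm4c lie on chromosome 4, Trim28 on chromosome 7, and Atrx and Suv39h1 on chromosome X.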

How the data were processed

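H3K9me3 and H3K36me3 were profiled by ChIP-seq in WT and G34R ES cells, in 4 libraries. Per the study's methods and the submitters' processing notes, the authors aligned reads to mm9 with Bowtie 1.0.0, dropping reads with more than 5 alignments, removed duplicates, counted reads in 200 bp bins over genes, normalised them between libraries, kept bins above the 95th percentile in WT or G34R cells and merged them with bedtools 2.20.1. The deposited lists hold positions only (chromosome, start and end), with no counts or other values, so depth is unknown and no comparison of WT with G34R cells was made. Of columns of other samples there were 0.

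Here the lists were overlapped with GENCODE vM1 genes on NCBIM37 (Python 3.11.15, NumPy 2.4.6, SciPy 1.17.1, Biopython 1.88, numba 0.67.0, matplotlib 3.10.9), with an overlap of 1 bp or more. For each symbol, 1 gene model was kept, the one with the longest coding sequence, and the last coding exon was that of its longest coding transcript. Finger matches are to a C2H2 pattern and KRAB matches to 2 patterns of the KRAB A box in the translated sequence. Copies are exact matches of the central 50 bases of each 200 bp bin on either strand. Shares have Wilson and differences Newcombe 95% intervals, which cover counting error over genes. No p-value was computed, since each group had 1 library. The overlap code was tested on simulated data, with 0 differences in 5201 checks.

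The members and lists were chosen with earlier results of these data known. Named genes are the 6 members with the most H3K9me3, the 6 with the most H3K36me3, the 6 with the most bases in both, the 4 with the most H3K9me3 in the last coding exon, the members of the 3 largest clusters, those nearest the 100 kb limit, and members listed for a known role. Of the last, Zfp110 and Zfp143 lie on chromosome 7 and Zfp131 was not matched, so they were not used here. Alternatives covered region width, overlap, part and cluster limits, copies, gene models, gene length and single chromosomes.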

Additional observations from a re-analysis of the deposited data

How the results depend on the processing

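The 6 shares and 5 differences recomputed here (the differences of H3K9me3 and H3K36me3 over the gene, of H3K9me3 in the last coding exon and of H3K36me3 in other coding exons and introns) had 152 alternatives, of which 140 left the value inside its 95% interval and 12 moved it outside. With regions of at least 1 kb only, H3K9me3 was found in 30.5% of the Zfp genes, at the start in 7.30% and in the last coding exon in 19.3%, H3K36me3 in 48.1% and in the last coding exon in 37.3%, and bases of both in 12.4%. Counting a region of each list anywhere in the gene as both gave 25.8%, against 12.9% of all protein-coding genes. Without chromosomes 13 and 17, H3K9me3 was found in 55.2%, the H3K9me3 difference between clustered and single genes was 7.20 points and that of the last coding exon 14.0 points. The H3K36me3 difference in other coding exons was then -3.86 points. Over 15 alternatives each, it ran from -21.9 to -3.86 points in other coding exons, with 3 intervals that include 0, and from -17.7 to -3.21 points in introns, with 7. Without chromosome 8, H3K9me3 at the start was found in 11.1%. The H3K9me3 difference also had the other sign without chromosome 13, at 2.10 points, and in genes under 40 kb, at 1.32 points, with intervals that include 0. It was -12.3 points (-23.5 to -0.42) with regions of at least 1 kb, and the H3K36me3 difference was -13.9 points (-26.0 to -1.13) with clusters set at 200 kb. The alternatives that leave out chromosomes, keep every gene model or keep genes under 40 kb, and all those of the last 2 differences, were chosen after seeing the data. A stricter threshold and the comparison of WT with G34R cells were not run, because the lists give no values. No paired analysis was possible because the lists pool both cells and give no value per sample. The unknown depth and the 600 bp minimum width limit what an absence from a list can show.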
